A study of Mus musculus with 21 samples.

Results

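The genes described here are 10 listed regulators of the kinase Cdk1 in oocytes, namely the B-type cyclins *Ccnb1*, *Ccnb2* and *Ccnb3*, *Cdk1*, the phosphatases *Cdc25a*, *Cdc25b* and *Cdc25c*, the kinase *Wee2*, and the ubiquitin ligase activators *Cdc20* and *Fzr1*. They were taken by symbol from a table of 54232 genes. Their levels were not part of the rule, but earlier results of these data were known when the list was made. All 10 had reads in every library and passed the filter of the test, which asked for reads in 3 or more libraries. The mRNA came from fully grown mouse oocytes at the germinal vesicle stage, in which the nucleus is still intact, in 21 libraries of 3 oocytes each. The females were 3 to 4 months old and had been primed with eCG (equine chorionic gonadotropin) or HyperOva, treatments that make follicles grow, and each mouse gave 1 or 2 libraries, so libraries can share an animal and the p-values measure the spread between libraries. The genotypes concern *Kif11*, the gene of the spindle motor KIF11 (kinesin-5), with a floxed allele (fl) that Cre recombinase can delete and an allele already deleted in all cells (del). The control was wt/fl without Cre (4 libraries). The others were wt/fl Spo11-Cre (5 libraries), fl/del without Cre (4) and fl/del Spo11-Cre (4), together with 2 libraries each of fl/fl with Gdf9-Cre and of fl/fl with Zp3-Cre. Every group, the control included, carries at least 1 floxed allele. The *Spo11* promoter drives Cre in meiotic prophase, and the *Gdf9* and *Zp3* promoters drive it in growing oocytes. The fl/fl libraries are not among the 17 libraries of the Spo11-Cre background that the study's methods describe, so for them genotype, driver and set of libraries cannot be told apart. Within the 17, 8 pairs of libraries share a name prefix, each pair in 1 group. The labels do not say whether a prefix is a mouse, and such a pair counts as 2 libraries in the tests.

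A fully grown oocyte stays arrested in prophase of meiosis I until a hormone signal lets it resume meiosis. Cdk1 bound to a B-type cyclin is the kinase that breaks down the nucleus and builds the spindle on which KIF11 works. In the arrested oocyte Wee2 holds Cdk1 inactive by phosphorylating it, and Cdc25 phosphatases remove that phosphate at resumption. The anaphase-promoting complex (APC/C) marks cyclin B for destruction, with Fzr1 (Cdh1) as its activator during the arrest and Cdc20 as its activator at anaphase. The data are mRNA levels in arrested oocytes and hold no measure of protein or kinase activity.

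The labelled cell type was checked first. Each of the 12 oocyte markers stood at 10 CPM (counts scaled to a library total of 1000000) or more in every library. Of 18 follicle cell markers, *Foxl2* had no read in any library and 2, *Cyp19a1* and *Nr5a2*, reached 10 CPM in all. The other 16 summed to between 4.41 and 25.5 CPM per library. The largest such sum was in a fl/fl Gdf9-Cre library. CPM are shares of a library's reads, so a change in the total RNA of an oocyte cannot be told apart from none. Library totals ran from 7205010 to 18454549 counts, and the members' counts from 88 for *Cdc25c* to 44646 for *Ccnb1*. *Kif11* itself stood at 23.8 to 43.2 CPM in wt/fl and 17.6 to 30.5 CPM in wt/fl Spo11-Cre. It stood at 7.49 to 14.6 CPM in fl/del, 1.08 to 2.70 CPM in fl/del Spo11-Cre, 4.90 to 5.11 CPM with Gdf9-Cre and 4.27 to 7.95 CPM with Zp3-Cre. Every library of these 4 groups lay below every wt/fl library, which is the direction of their labels.

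To set the genes against each other, levels per transcript length were needed, and these were taken as the TPM (transcripts per 1000000) that the authors computed. In wt/fl oocytes *Ccnb1* mRNA led with 1476 ± 118 TPM (SD, n = 4), the 85th highest of 22281 genes above 0. *Wee2* followed with 490 ± 22.9 TPM and *Ccnb2* with 441 ± 18.8 TPM. *Cdc20* stood at 233 ± 33.4 TPM, *Cdk1* at 120 ± 10.4 TPM and *Fzr1* at 67.0 ± 12.0 TPM. The ranges of neighbours in this order did not overlap down to *Fzr1*. Below it, *Cdc25c* (20.3 ± 2.58 TPM), *Ccnb3* (19.0 ± 2.64 TPM) and *Cdc25a* (16.2 ± 1.69 TPM) overlapped, each with the next, and *Cdc25b* was lowest at 12.2 ± 1.61 TPM. The order of the upper 6 held in all 6 groups, except that *Ccnb2* and *Wee2*, whose libraries overlapped there, changed places in both Spo11-Cre groups. The place of *Cdc25c* depended on the transcript length used. With counts divided by the merged exon length of the gene, its wt/fl level was 8.16 TPM, the lowest of the 10.

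**Figure D1:**
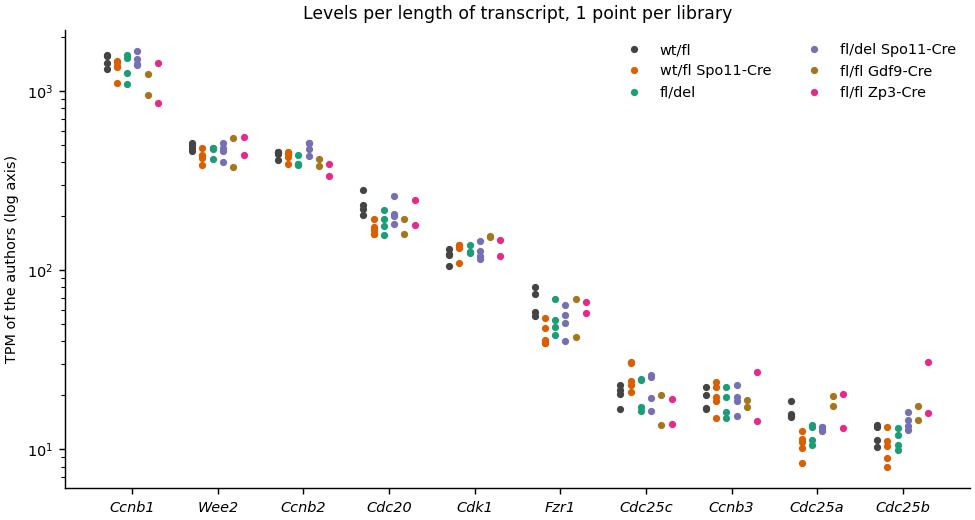
Levels per transcript length of the 10 genes (TPM of the authors, log axis), 1 point per library, coloured by group and ordered by the wt/fl mean. *Ccnb1* is the highest of the 10 in every library, and the Cdc25 genes and *Ccnb3* lie together at the bottom.

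On this scale of TPM, *Ccnb1* made up 75.0% ± 2.51 (SD, n = 21 libraries) of the cyclin B mRNA, *Ccnb2* 23.9% ± 2.46 and *Ccnb3* 1.07% ± 0.185. Summed cyclin B mRNA exceeded *Cdk1* mRNA 16.2 ± 1.84 times in wt/fl. *Wee2* exceeded the 3 *Cdc25* genes together 10.1 ± 0.7096 times, and *Cdc20* exceeded *Fzr1* 3.51 ± 0.398 times. The ratio of *Wee2* to *Cdc25* depends on the transcript length used. With merged exon lengths the wt/fl levels were 498 TPM for *Wee2*, 16.4 for *Cdc25a*, 12.4 for *Cdc25b* and 8.16 for *Cdc25c*. Over all 21 libraries the ratio of *Cdc20* to *Fzr1* stayed between 2.77 and 4.51. The ratio of cyclin B to *Cdk1* was 9.05 and 10.6 in the Gdf9-Cre libraries, and 10.1 and 12.6 in the Zp3-Cre libraries, against 14.6 to 18.8 in wt/fl. All 4 fl/fl libraries thus lay below the 4 control libraries, but each other group also had libraries below them, with ratios from 10.9 to 17.7 in wt/fl Spo11-Cre, 12.0 to 15.8 in fl/del and 13.4 to 18.0 in fl/del Spo11-Cre. These ratios are descriptions and were not tested.

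*Ccnb1* (ENSMUSG00000041431, GRCm38 chr13:100778650-100786570, minus strand) encodes the main cyclin partner of Cdk1 in the oocyte. It stood at 2709, 2680, 2320 and 2426 CPM in wt/fl and at 2550, 2569, 2407, 2396 and 2006 CPM in wt/fl Spo11-Cre. The Cre-free fl/del libraries stood at 2727, 2663, 1956 and 2184 CPM, and those of fl/del Spo11-Cre at 2912, 2513, 2461 and 2605 CPM. These 17 libraries overlapped across all 4 genotypes. The Gdf9-Cre libraries stood at 2109 and 1718 CPM, both below every wt/fl library, and the Zp3-Cre libraries at 1507 and 2411 CPM, of which the latter lay within the wt/fl range.

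*Ccnb2* (ENSMUSG00000032218, chr9:70407692-70421547), another cyclin that can pair with Cdk1, varied least of the 10 within groups of the Spo11-Cre background. Its SD there was 5.21% of its mean, beside a median of 7.61% for genes of like level. That SD is lower than for all but 1.55% of the 7755 genes with a mean of at least 10 CPM. Over all 21 libraries its SD was 10.2% of the mean, above the 8.41% of *Wee2*. Its group means ran from 226 CPM with Zp3-Cre to 308 CPM in fl/del Spo11-Cre, around 275 CPM in wt/fl. *Ccnb3* (ENSMUSG00000051592, chrX:6979652-7041619), a cyclin needed for anaphase of meiosis I, ranged from 27.6 to 49.2 CPM, and both ends of that range were Zp3-Cre libraries.

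*Cdk1* (ENSMUSG00000019942, chr10:69335146-69352938), the kinase itself, stood at 215, 259, 252 and 240 CPM in wt/fl and at 223, 280, 273, 286 and 294 CPM in wt/fl Spo11-Cre. The Cre-free fl/del libraries stood at 254, 257, 260 and 280 CPM and those of fl/del Spo11-Cre at 246, 272, 295 and 235 CPM. The Gdf9-Cre libraries, at 306 and 323 CPM, were the highest of the 21, while the Zp3-Cre libraries stood at 247 and 288 CPM, inside the range of the others.

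*Wee2* (ENSMUSG00000037159, chr6:40439088-40466813), the oocyte kinase that inhibits Cdk1, also varied little. Its SD within groups of the Spo11-Cre background was 6.15% of its mean, beside a median of 7.61% for genes of like level. It stood at 665, 632, 601 and 607 CPM in wt/fl, and at 622, 569, 572, 553 and 522 CPM in wt/fl Spo11-Cre. It stood at 612, 620, 556 and 607 CPM in fl/del, and at 596, 543, 621 and 660 CPM in fl/del Spo11-Cre. The Gdf9-Cre libraries stood at 685 and 505 CPM and the Zp3-Cre libraries at 576 and 692 CPM. These 4 libraries held the lowest and the highest *Wee2* value of the series, and every group overlapped wt/fl.

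The *Cdc25* genes encode the phosphatases that activate Cdk1, and Cdc25b is the one known to be required for resumption in mouse oocytes. *Cdc25a* (ENSMUSG00000032477, chr9:109875579-109893895) stood at 51.5, 48.7, 50.7 and 60.3 CPM in wt/fl and at 36.5, 38.02, 42.0, 34.2 and 28.8 CPM in wt/fl Spo11-Cre. The Cre-free fl/del libraries stood at 43.4, 37.3, 36.1 and 44.6 CPM and those of fl/del Spo11-Cre at 42.3, 43.5, 44.2 and 44.2 CPM. All 13 libraries of these 3 genotypes lay below the lowest wt/fl library. With Gdf9-Cre it stood at 63.3 and 60.2 CPM and with Zp3-Cre at 68.4 and 41.8 CPM, so the low values were not shared by the Gdf9-Cre group.

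*Cdc25b* (ENSMUSG00000027330, chr2:131186949-131198497) stood at 20.5, 20.4, 15.9 and 16.95 CPM in wt/fl and at 12.2, 16.2, 17.1, 20.8 and 14.4 CPM in wt/fl Spo11-Cre. The Cre-free fl/del libraries stood at 20.02, 16.3, 15.7 and 18.2 CPM and those of fl/del Spo11-Cre at 24.8, 21.5, 19.7 and 22.4 CPM. It was at 26.0 and 23.4 CPM with Gdf9-Cre and at 47.6 and 23.4 CPM with Zp3-Cre. The first Zp3-Cre library thus held the highest value of the series, and the other 3 fl/fl libraries were close to each other. *Cdc25c* (ENSMUSG00000044201, chromosome 18) ranged from 11.3 CPM with Zp3-Cre to 25.7 CPM in wt/fl Spo11-Cre, and 12.7% of its exon bases overlap the gene *Gm3550* on the other strand. Since strand-aware counting is not stated, reads of these genes cannot be told apart in the shared stretch.

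Among the APC/C activators, *Cdc20* (ENSMUSG00000006398, chr4:118432901-118437352) stood at 177, 211, 156 and 165 CPM in wt/fl and at 130, 125, 135, 150 and 128 CPM in wt/fl Spo11-Cre. The Cre-free fl/del libraries stood at 135, 149, 124 and 165 CPM and those of fl/del Spo11-Cre at 199, 146, 155 and 158 CPM. The Gdf9-Cre libraries stood at 143 and 127 CPM and the Zp3-Cre libraries at 140 and 182 CPM. Of these groups, wt/fl Spo11-Cre and Gdf9-Cre lay wholly below wt/fl.

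*Fzr1* (ENSMUSG00000020235, chr10:81366222-81378516) stood at 108, 146, 103 and 133 CPM in wt/fl and at 72.2, 76.3, 88.0, 102 and 76.1 CPM in wt/fl Spo11-Cre. The Cre-free fl/del libraries stood at 88.4, 98.0, 82.9 and 127 CPM, and those of fl/del Spo11-Cre at 119, 77.5, 104 and 93.3 CPM. It stood with Gdf9-Cre at 124 and 81.4 CPM and with Zp3-Cre at 108 and 118 CPM. Only the wt/fl Spo11-Cre libraries lay wholly below wt/fl, the highest of them at 102 CPM beside 103 CPM in the lowest control. Its SD within groups of the Spo11-Cre background, 17.4% of the mean, was above the median of 10.4% for genes of like level.

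**Figure D2:**
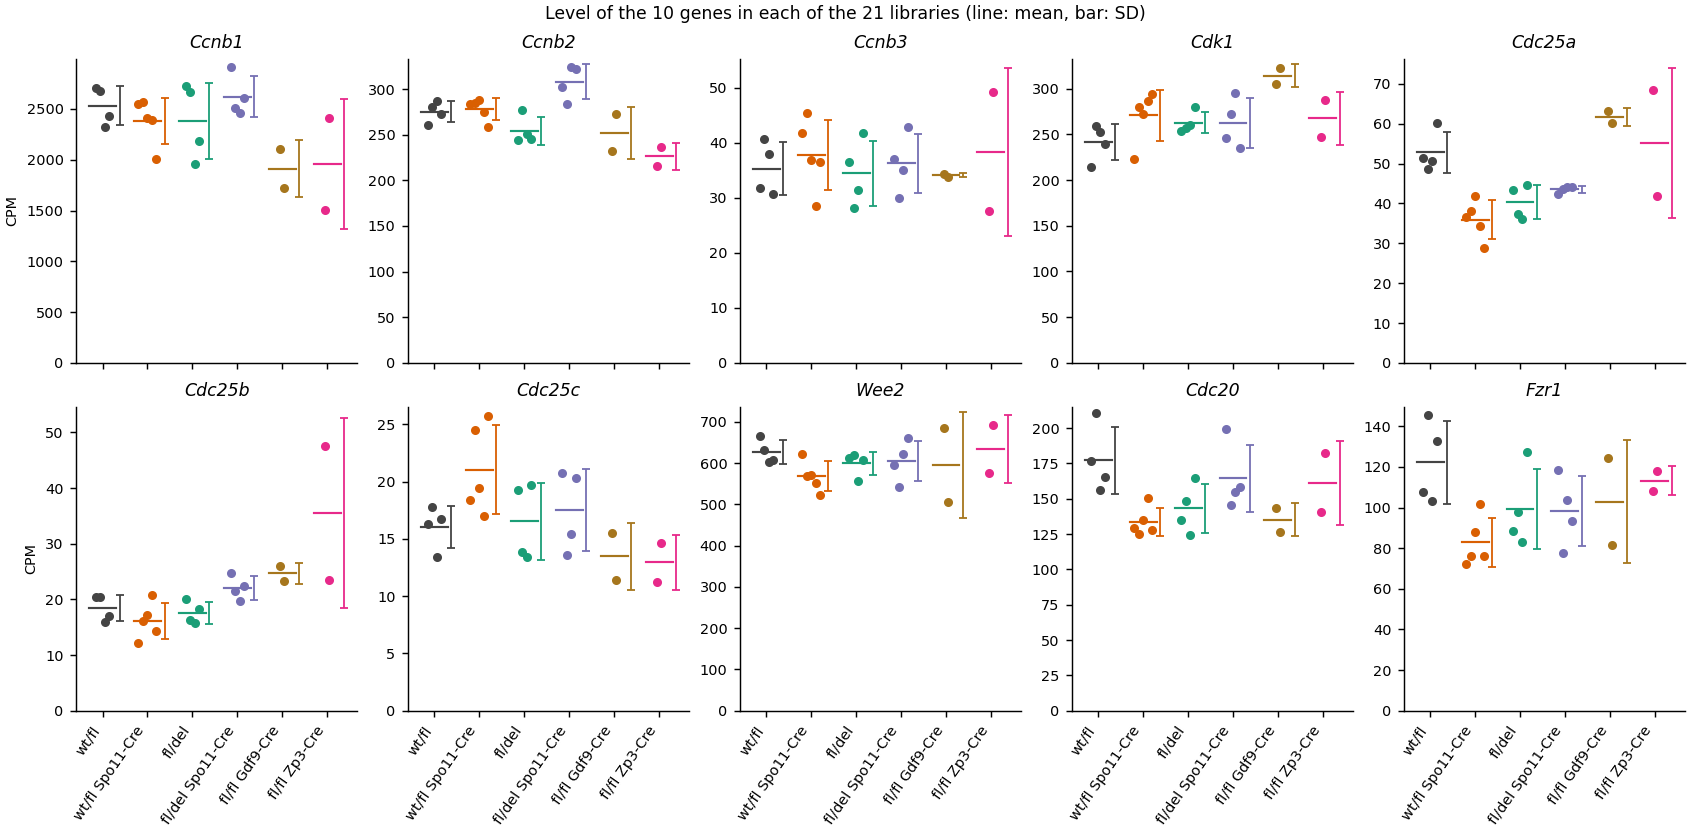
Level of each of the 10 genes in CPM by group, with 1 point per library, a line at the group mean and a bar of 1 SD. *Cdc25a* is lower than in every wt/fl library in all 13 other libraries of the Spo11-Cre background, and the Zp3-Cre libraries are far apart for *Ccnb1*, *Ccnb3*, *Cdc25a* and *Cdc25b*.

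The comparison of wt/fl Spo11-Cre with wt/fl asks what differs in oocytes that carry Cre and lose the floxed copy while the wild-type copy remains. In these oocytes mRNA of *Cdc25a*, *Cdc20* and *Fzr1* was lower, while the B-type cyclins, *Cdk1* and *Wee2* did not pass the test. In edgeR's quasi-likelihood test with Benjamini-Hochberg adjustment over 22383 genes, 3 of the 10 members passed at an adjusted p under 0.05. All 3 were lower, beside 2.19% of all genes tested that passed in either direction and 1.33% that passed as lower. *Fzr1* had a log2 fold change of -0.54 (SE 0.118, adjusted p = 0.00621) and was lower than the wt/fl mean in 5 of 5 libraries. *Cdc25a* had a log2 fold change of -0.53 (SE 0.125, adjusted p = 0.0100), and *Cdc20* one of -0.38 (SE 0.0981, adjusted p = 0.0212), each lower in 5 of 5 libraries. The libraries of the groups did not overlap for these 3 members, as for 4.95% of all genes tested. *Cdc25c* (log2 fold change 0.42, SE 0.187, adjusted p = 0.273) and *Cdk1* (0.19, SE 0.0899, adjusted p = 0.2999) had an unadjusted p under 0.05 but did not pass. With the 3 that passed, 5 members had such a p, beside 15.0% of all genes tested. The median log2 fold change of the 10 members was -0.09, beside 0.03 for all genes.

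The calls changed with single libraries. Without wt/fl replicate 2, *Fzr1* (-0.44, adjusted p = 0.0728) and *Cdc20* (-0.29, adjusted p = 0.197) did not pass in edgeR. Without wt/fl replicate 4, *Cdc25a* did not (-0.46, adjusted p = 0.0739), and leaving out replicate 2 of wt/fl Spo11-Cre ended the call of *Cdc20* (-0.36, adjusted p = 0.0591). Base composition differed between these groups as well. When the 7745 genes with a mean of at least 10 CPM and a known GC content were split into 5 equal groups by the GC content of their longest transcript, the median difference in log2(CPM + 1) from the wt/fl mean was between -0.17 and -0.06 for the GC-richest group in the 5 wt/fl Spo11-Cre libraries. It was between -0.08 and 0.05 in the 4 wt/fl libraries. *Fzr1* (59.9% GC) and *Cdc20* (55.6% GC) belong to that group and *Cdc25a* (46.0% GC) does not. With each library corrected for GC content, an alternative chosen after seeing the data, edgeR gave *Fzr1* -0.41 (adjusted p = 0.0427), *Cdc25a* -0.54 (adjusted p = 0.0108) and *Cdc20* -0.29 (adjusted p = 0.109).

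**Figure D3:**
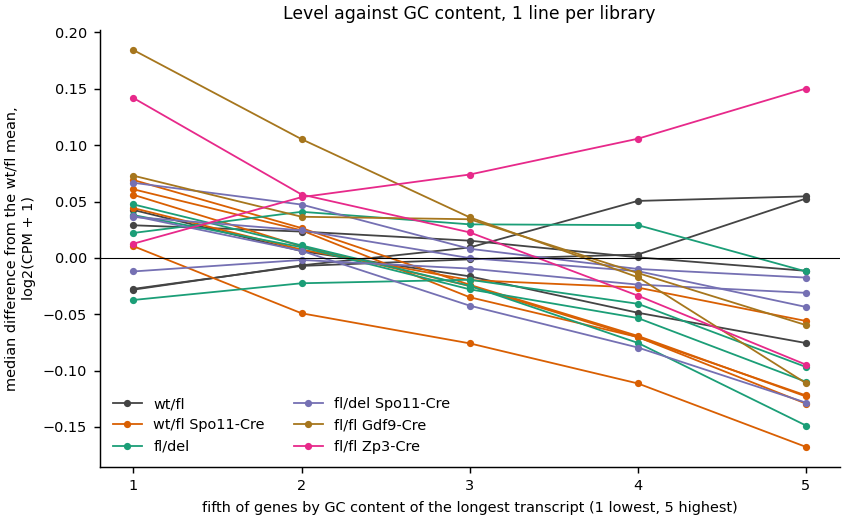
Median difference of each library from the wt/fl mean on the log2(CPM + 1) scale, for 5 groups of genes of rising GC content, with 1 line per library. The wt/fl Spo11-Cre lines end between -0.17 and -0.06 in the GC-richest group, and the Zp3-Cre lines run in opposite directions to 0.15 and -0.09. The lines of fl/del with and without Cre also end below the wt/fl mean.

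Promoter sequences of these genes are shown because the cyclin B and *Cdk1* promoters are known for CCAAT boxes, the binding site of the factor NF-Y. The 3 members that were lower in wt/fl Spo11-Cre are shown with them. Windows of 250 bases before to 50 bases after each RefSeq start (GRCm38.p6) were available for 9 members, *Cdc25c* being the one not analysed. The letters CCAAT, on either strand, occurred in 8 of the 9 windows, all but that of *Ccnb3*, beside 37.4% of 32851 windows of the genome. They occurred at 2 or more places in 6 of the 9, beside 11.7% of all windows. TTTGAA or TTTAAA, on either strand, the core of the cell cycle element known as CHR, occurred in 5 of the 9, beside 27.6%. The RefSeq start can differ from the gene's end in the positions given above, which came from GENCODE. The *Fzr1* stretch below, for example, lies within the span given for *Fzr1*. The stretches, for the cyclin B and *Cdk1* genes and the 3 that were lower, run 5′ to 3′ on the gene's strand. They hold every CCAAT that starts within 110 bases before the RefSeq start, with up to 8 bases on each side. The box is in capitals (CCAAT, or ATTGG where it lies on the other strand).
Ccnb1, chr13:100786541-100786593, minus strand: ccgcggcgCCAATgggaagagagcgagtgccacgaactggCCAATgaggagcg
Ccnb2, chr9:70421563-70421649, minus strand: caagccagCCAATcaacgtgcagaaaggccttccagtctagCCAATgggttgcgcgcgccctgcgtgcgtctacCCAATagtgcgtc
Cdk1, chr10:69352948-69353000, minus strand: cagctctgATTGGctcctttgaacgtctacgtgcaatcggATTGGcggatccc
Cdc25a, chr9:109875490-109875510, plus strand: gcttcctgATTGGtgaattcc
Cdc20, chr4:118437344-118437404, minus strand: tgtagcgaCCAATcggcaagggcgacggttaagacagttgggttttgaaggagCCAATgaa
Fzr1, chr10:81378437-81378457, minus strand: cgggacagATTGGgggaggga
The *Ccnb2* stretch holds 3 boxes, spaced 33 and 33 bases from first base to first base. The *Ccnb1* and *Cdk1* stretches hold 2 boxes each at a spacing of 32 bases, and that of *Cdc20* holds 2 at a spacing of 45 bases, while *Cdc25a* and *Fzr1* show 1 each. *Cdc25b* and *Wee2* also have 1 box each starting within those 110 bases, not shown. A match of letters is a description of the window. Neither binding nor a tie between the boxes and the fold changes was tested.

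The fl/del oocytes without Cre carry a floxed copy alone from the start, and their comparison with wt/fl shares the same 4 control libraries. No member passed in edgeR, and DESeq2 called 0. An unadjusted p under 0.05 was found for 3 members in edgeR, beside 8.52% of all genes. Of all genes, 0.0223% passed in edgeR, which is 5 genes. *Cdc25a* had a log2 fold change of -0.37 (SE 0.133, adjusted p = 0.496), *Cdc20* of -0.29 (SE 0.104, adjusted p = 0.498) and *Fzr1* of -0.29 (SE 0.125, adjusted p = 0.580). After the GC correction edgeR gave -0.38, -0.21 and -0.16 in the same order (adjusted p = 0.488, 0.595 and 0.737). The libraries did not overlap for *Cdc25a* alone, 1 of 10 members, beside 2.99% of all genes. The other 7 members had log2 fold changes between -0.10 and 0.14. The median over the 10 was -0.06, and that over all genes was 0.00.

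In fl/del Spo11-Cre oocytes, which lose both copies, no member passed against wt/fl. In edgeR 2 had an unadjusted p under 0.05, beside 10.4% of all genes. DESeq2 called 0 members, and 0.197% of all genes passed in edgeR. *Fzr1* had a log2 fold change of -0.32 (SE 0.125, adjusted p = 0.381) and *Cdc25a* of -0.28 (SE 0.132, adjusted p = 0.452), each lower than the wt/fl mean in 4 of 4 libraries. After the GC correction these were -0.23 and -0.28 (edgeR adjusted p = 0.499 and 0.456). The libraries did not overlap for *Cdc25a* alone, beside 4.18% of all genes. The other 8 members lay between -0.11 and 0.26, with *Cdc20* at -0.11 and *Ccnb2* at 0.16. The median of the 10 was 0.04, and that of all genes was 0.01.

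Set against wt/fl Spo11-Cre, fl/del Spo11-Cre oocytes differ in the other *Kif11* copy while both carry Cre. No member passed in edgeR here either, DESeq2 called 0, and 0.0357% of all genes passed in edgeR. An unadjusted p under 0.05 was found for 3 members, beside 7.11% of all genes. All 3 log2 fold changes were positive, at 0.42 for *Cdc25b* (SE 0.175), 0.27 for *Cdc20* (SE 0.0981) and 0.25 for *Cdc25a* (SE 0.125), each with an edgeR adjusted p of 0.702. The libraries of the groups did not overlap for *Cdc25a* alone, all 4 above all 5, beside 1.85% of all genes. The other 7 members lay between -0.30 and 0.22. The comparison shares its Spo11-Cre libraries with that of wt/fl Spo11-Cre above, in which *Cdc25a* and *Cdc20* passed as lower.

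Whether the difference between Cre-carrying and Cre-free oocytes depends on the del allele was tested as an interaction in the same edgeR model. No member passed, and 0.103% of all genes passed. An unadjusted p under 0.05 was found for 3 members, and the share of all genes at that p is not given here. DESeq2 was not run on the interaction. The difference between the Cre effects, fl/del minus wt/fl, was 0.56 for *Cdc20* (log2, SE 0.143, adjusted p = 0.0973), 0.62 for *Cdc25a* (SE 0.183, adjusted p = 0.166) and 0.50 for *Fzr1* (SE 0.173, adjusted p = 0.274). An effect of Cre that differs between wt/fl and fl/del was therefore not shown for any of the 10.

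**Figure D4:**
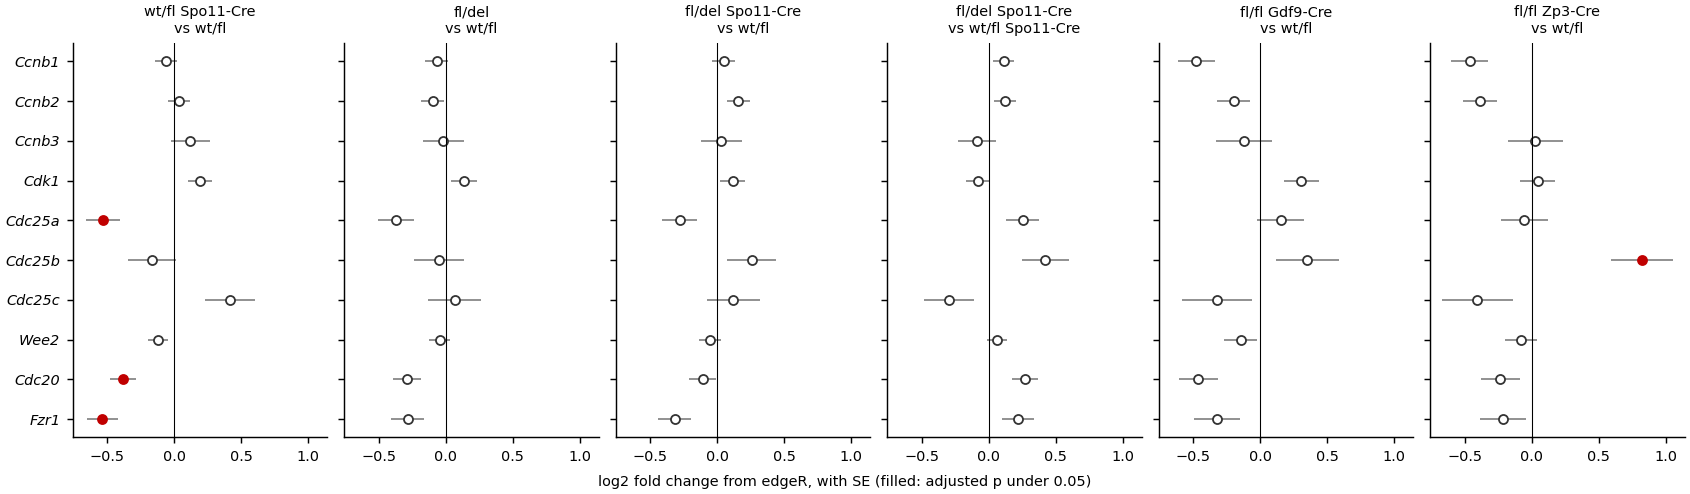
Log2 fold change of the 10 genes in each of the 6 comparisons, with the SE from edgeR. Filled points have an adjusted p under 0.05, which holds for *Cdc25a*, *Cdc20* and *Fzr1* in wt/fl Spo11-Cre and for *Cdc25b* in fl/fl Zp3-Cre. Comparisons against wt/fl share its 4 libraries.

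The fl/fl Gdf9-Cre oocytes, which lose both floxed copies during growth, were compared with wt/fl in an edgeR fit of all 21 libraries. No member passed, and 1.48% of all genes passed. In edgeR 3 members had an unadjusted p under 0.05, beside 11.7% of all genes. DESeq2 called 2, *Ccnb1* (-0.46, adjusted p = 0.0386) and *Cdc20* (-0.45, adjusted p = 0.0355). In edgeR *Ccnb1* had a log2 fold change of -0.48 (SE 0.138, adjusted p = 0.0624) and *Cdc20* of -0.46 (SE 0.147, adjusted p = 0.103), with 2 of 2 libraries below every wt/fl library in each case. *Cdk1* had 0.31 (SE 0.128, adjusted p = 0.292), with 2 of 2 libraries above every wt/fl library, as also held for *Cdc25b*. The share of all genes without overlap was not computed for this comparison. With 2 libraries in a group, such a separation is weak evidence. The other 7 members lay between -0.32 and 0.35. Whether *Ccnb1* passed depended on the setting. It passed in edgeR in a fit of only the compared groups (adjusted p = 0.0301) and after the GC correction (adjusted p = 0.0368). In edgeR with a replicate block it also passed (adjusted p = 1.33e-04). The labels tie no replicate number to an animal or batch, so the block adds little weight. With a library left out, its log2 fold change ran from -0.62 to -0.33. For *Cdc20*, one of the GC-richest genes, the GC correction gave -0.31 (edgeR adjusted p = 0.378).

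In fl/fl Zp3-Cre oocytes *Cdc25b* was higher than in wt/fl, with a log2 fold change of 0.82 (SE 0.232, edgeR adjusted p = 0.0384). It was the 1 member of 10 that passed, beside 2.27% of all genes. Both libraries lay above every wt/fl library, but at 47.6 and 23.4 CPM they differed from each other by more than the control libraries did, which lay between 15.9 and 20.5 CPM. The share of all genes without overlap was not computed for this comparison. Without Zp3-Cre replicate 1, which leaves 1 library in that group, the log2 fold change of *Cdc25b* was 0.29. Without wt/fl replicate 3 or 4 the edgeR adjusted p was 0.107 and 0.0862. Summing libraries of a name prefix also left 1 Zp3-Cre library, so no call is given for that setting. *Ccnb1* had a log2 fold change of -0.46 (SE 0.138, adjusted p = 0.0571) and *Ccnb2* one of -0.39 (SE 0.124, adjusted p = 0.0894) in edgeR, both called by DESeq2 (adjusted p = 0.0499 and 0.00650). For *Ccnb1* the value was -0.12 without Zp3-Cre replicate 1 and -0.89 without replicate 2. The other 7 members lay between -0.41 and 0.05. For the GC-richest genes the median difference from the wt/fl mean was 0.15 in Zp3-Cre replicate 1 and -0.09 in replicate 2. After the GC correction *Cdc25b* (54.2% GC) had 0.88 (edgeR adjusted p = 0.0183). The correction changed the split of all genes called from 242 higher and 286 lower to 342 higher and 223 lower.

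*Ccnb1* has a near-identical copy, *Ccnb1-ps*, to which its reads may be assigned. The copy held 0.422% to 0.701% as many counts as *Ccnb1* in the 17 libraries other than fl/fl and 0.978% to 1.22% in the 4 fl/fl libraries. In CPM it stood at 11.2 to 18.0 in the former and at 16.0 to 25.2 in the latter. How the aligner divided reads between these copies was not tested.

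The other genes that act on this switch were read from lists of 44 genes, 43 of which were tested. In wt/fl Spo11-Cre against wt/fl, 0 passed as higher and 5 as lower in edgeR, beside 2.19% of all genes in either direction and 1.33% as lower. Among 15 partners and inputs of Cdk1 these were *Plk1*, a kinase that activates Cdc25 (194 ± 25.1 CPM, n = 5, against 275 ± 34.3 CPM, n = 4, log2 fold change -0.48, adjusted p = 0.00251), and the cyclin *Ccna2* (-0.41, adjusted p = 0.0180). Among 8 genes of the Greatwall and PP2A branch, which sets the phosphatase that opposes Cdk1, it was the scaffold subunit *Ppp2r1a* (-0.41, adjusted p = 0.0380). Among 16 genes of the APC/C and its E2 enzymes these were the subunits *Anapc2* (-0.58, adjusted p = 0.0337) and *Anapc5* (-0.37, adjusted p = 0.0467). Libraries of the groups overlapped for *Anapc2* (16.2 to 25.9 against 23.3 to 35.5 CPM) and *Anapc5* (85.8 to 111 against 105 to 164 CPM). They did not for *Plk1*, *Ccna2* and *Ppp2r1a*. Fold changes of these 5 genes with a library left out or after the GC correction are not given here. None of 5 inhibitors and substrates of the APC/C passed. The median log2 fold changes of these 4 lists were -0.03, -0.06, 0.01 and 0.07, beside 0.03 over all genes.

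For oocytes with the del allele, Cre-free and Cre-carrying, 0 of the 43 passed against wt/fl in edgeR. An unadjusted p under 0.05 was found for 7 and 5 of them, beside 8.52% and 10.4% of all genes. In fl/del Spo11-Cre against wt/fl Spo11-Cre 0 passed and 1 had such a p, beside 7.11% of all genes. DESeq2 called 0 in each of these comparisons. With Gdf9-Cre 2 of 43 passed in edgeR, beside 1.48% of all genes, both lower, the E2 enzyme *Ube2s* (-0.81, adjusted p = 1.02e-04) and *Anapc5* (-0.58, adjusted p = 0.0475). With Zp3-Cre 2 of 43 passed, beside 2.27% of all genes, both lower, the APC/C subunit *Cdc27* (-0.98, adjusted p = 1.56e-06) and *Ube2s* (-0.54, adjusted p = 0.0136). *Cdc27* stood at 194 and 195 CPM in the Zp3-Cre libraries against 310 to 396 CPM in wt/fl.

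The genes whose pattern over the 21 libraries was closest to that of the core genes were found by the root mean square difference in centred log2(CPM + 1), among 7745 genes with a mean of at least 10 CPM. *Kpna2* (0.108) and *Dclre1a* (0.113) were closest to *Ccnb1*, beside a median of 0.340 over all genes. *Vbp1* (0.0984) and *Cdc42* (0.107) were closest to *Cdk1*, beside a median of 0.282. *Rbbp7* (0.0825) and *Cenpo* (0.0905) were closest to *Wee2*, beside a median of 0.263. The measure uses all libraries and shares their depth and base composition.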

How the data were processed

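Poly(A) RNA of 3 oocytes per library was amplified as full-length cDNA and sequenced. Per the labels and the paper's methods, the authors used fastp for trimming, HISAT2 2.2.1 for alignment to GRCm38, and counted uniquely mapped reads with featureCounts 2.0.3 of Subread. The deposited counts are raw whole numbers, and the table with *Kif11* counted over all exons was used. The authors' TPM values served for levels between genes. How they computed TPM, and whether strand or read pairs were used in counting, is not given in the sources used here. Member counts in this table were 1.94 to 1.99 times those in the table made with *Kif11* exon 22.

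CPM were scaled to library totals. Gene symbols and positions came from GENCODE for GRCm38 (54079 of 54232 genes matched). Groups were taken from the labels and compared by edgeR 4.0.16 in R 4.3.3 (TMM, estimateDisp, glmQLFit, glmQLFTest, two-sided) on genes detected (count above 0) in 3 or more libraries, with Benjamini-Hochberg adjustment and a threshold of 0.05. Wt/fl and fl/del libraries, 17 in all, entered a common fit, and fl/fl groups were compared in a fit of 21. The study's methods name DESeq2, which was run as an alternative (1.42.0). Further alternatives were RLE factors, other filters, the exon 22 table, other sets of libraries, summed libraries of a shared name prefix, each library left out, a replicate block, and, added after the data were seen, a lowess correction for GC content. The code was tested on simulated data. Other steps used Python 3.11.15, numpy 2.4.6, pandas 2.3.3 and matplotlib 3.10.9.

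The members, the pathway and marker lists and the tests were chosen with earlier results of these data known. Members with an unadjusted p under 0.05 are given with their fold change in each comparison, library values are given for members that passed in any comparison and for *Ccnb1*, *Cdk1* and *Wee2*, and at most 3 genes per list and comparison are named, smallest p first. *Kif11* counts over single exons were not used.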

Additional observations from a re-analysis of the deposited data

Results flagged for a closer look

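For 2 members, the Cre-carrying libraries lay on opposite sides of the mean of the Cre-free libraries of their background, below it in wt/fl and above it in fl/del oocytes. *Cdc25a* was below that mean (52.8 CPM) in all 5 wt/fl Spo11-Cre libraries and above it (40.3 CPM) in all 4 fl/del Spo11-Cre libraries, and the interaction in edgeR was 0.62 on the log2 scale (adjusted p = 0.166). *Cdc20* was below its mean (177 CPM) in all 5 and above it (143 CPM) in all 4, and the interaction was 0.56 (edgeR adjusted p = 0.0973). Neither interaction passed the threshold, and in fl/del the ranges of libraries with and without Cre overlapped for both genes. In the 40 combinations of a member and a group of 4 or 5 libraries, no library stood apart from the rest of its group by Dixon's criterion, which chance alone would meet in about 1 of 20 groups.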

How the results depend on the processing

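The counts of members that passed were kept within 1.5 times in the 3 comparisons of fl/del and fl/del Spo11-Cre libraries, at 0 under each alternative. For Cre-carrying against Cre-free wt/fl, 2 or 3 members passed under the 10 alternatives that keep all libraries, and 1 to 3 with a library left out. *Cdc20* was also lost in the fit of all 21 libraries (edgeR adjusted p = 0.0685). With libraries of a shared name prefix summed, the same 3 members passed in edgeR. These were *Fzr1* (-0.55, adjusted p = 0.00595), *Cdc25a* (-0.58, adjusted p = 0.0197) and *Cdc20* (-0.39, adjusted p = 0.0363). For fl/fl Gdf9-Cre, where 0 passed, 1 passed without a filter on low counts, with the exon 22 table, after the GC correction and in a fit of only the compared groups, and 2 passed in DESeq2. Leaving out a library gave 0 to 1. For fl/fl Zp3-Cre, where 1 passed, 2 passed without the filter and with the exon 22 table, 3 passed in DESeq2 and 0 in a fit of only the compared groups. Summing libraries of a name prefix left 1 library in each fl/fl group, so no count is given for that setting. For Zp3-Cre the log2 fold changes were then -0.46 for *Ccnb1* and 0.84 for *Cdc25b*. Leaving out a library gave 0 to 3. The causes were not tested. Of 332 fold changes recomputed for the named members, 302 kept their direction and their side of the threshold, 12 no longer passed, 18 newly passed, and 0 reversed. Of 340 levels, 4 moved by more than the SD of their libraries, namely *Ccnb3*, *Cdk1* and *Cdc25a* with Gdf9-Cre as TMM-scaled CPM and *Cdc25c* under another length.

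The number of all genes that passed varied more. For Cre-carrying against Cre-free wt/fl it was 491, with 742 without the filter, 931 in DESeq2, 252 in the fit of all 21 libraries, and 179 to 575 with a library left out. For fl/del against wt/fl it was 5, with 80 without the filter, 2 with filterByExpr, 21 in DESeq2, and 1 to 18 with a library left out. For oocytes without either *Kif11* copy (fl/del Spo11-Cre) it was 44 against wt/fl, with 185, 29 and 158 in the same order, 83 with the exon 22 table and 30 to 71 with a library left out. Against wt/fl Spo11-Cre it was 8, with 39, 4 and 14 in that order, 5 in the fit of all 21 libraries, and 3 to 12 with a library left out. For Gdf9-Cre it was 343, with 731 in DESeq2 and 99 to 407 with a library left out. For Zp3-Cre it was 528, with 879 in DESeq2, 204 in a fit of only the compared groups, and 133 to 1227 with a library left out.

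The groups share replicate numbers, but the labels tie no number to an animal or batch. Library names within a group do share prefixes, which the labels do not tie to a mouse either. Deviations from the group means of same-numbered libraries correlated at -0.164 to 0.157 over 24 pairs (across genes), and 6 of 16 libraries correlated best with their own number, so the numbers did not pair the libraries. With a replicate block, 2 members passed for Gdf9-Cre (*Ccnb1* and *Cdc20*). For Zp3-Cre 1 passed, *Ccnb1* (-0.57, edgeR adjusted p = 1.21e-04) in place of *Cdc25b* (0.77, adjusted p = 0.0690). In the other comparisons the block changed no call of a member, while all genes that passed came to 96 for Cre-free fl/del. They came to 230 for Cre-carrying fl/del against wt/fl, and 29 against wt/fl Spo11-Cre. Depth limits *Cdc25b* and *Cdc25c* most, with 88 to 467 counts per library.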
